A study of Mus musculus with 7 samples.

Results

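Pvalb, Calb1 and Calb2, the genes of the calcium-binding proteins parvalbumin, calbindin and calretinin, are described here across the cell types of mouse cortex. They were chosen by name as the calcium-binding markers of interneurons, 3 of 25871 genes measured by single-nucleus RNA sequencing (snRNA-Seq). Around them lie 68 of the 323369 reference regions of accessible chromatin, counting every region within 50 kb of a gene body.

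Parvalbumin, calbindin and calretinin bind calcium ions through EF-hand loops and buffer the calcium that enters a neuron when it fires. In the cortex, parvalbumin is the classical marker of fast-spiking basket and chandelier interneurons. Calbindin is found in many somatostatin (SST) interneurons and in excitatory neurons of the upper layers. Calretinin marks a class of interneurons that express vasoactive intestinal polypeptide (VIP), and some SST interneurons.

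The study compared interneuron chromatin to find regulatory elements for viral vectors, and counted viral and cellular RNA in single nuclei. The snRNA-Seq sample was visual cortex (V1) of C57BL/6J mice aged 6 to 10 weeks, male by the labels, injected with an AAV9 library of candidate regulatory elements, and was deposited as 10 libraries numbered in 2 sets of 5. The study's methods give 5 libraries from each of 2 animals, but no label ties a library to an animal. The assay for transposase-accessible chromatin (ATAC-Seq) used 6 uninjected mice of 6 to 12 weeks, 2 each for SST, PV and VIP nuclei, male by the labels although the protocol names both sexes. Their nuclei came from whole cortex of crosses of Sst-IRES-Cre, Pv-Cre or Vip-IRES-Cre with the SUN1-2xsfGFP-6xMYC reporter. All 6 carry that reporter allele, which puts a tag on nuclei that express Cre or whose precursors did. The PV nuclei were thus chosen through a Pvalb driver, and accessibility at Pvalb itself is not independent of that choice.

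Of 47348 nuclear barcodes, 32335 held more than 200 non-viral unique molecular identifiers (UMIs), with 2457 to 3629 nuclei and a median of 612 to 876 UMIs per library. Nuclei were put in 15 gates by UMIs of marker genes, none of them Pvalb, Calb1 or Calb2, and 17206 nuclei (53.2%) entered a gate. The gates held 2743 GABA nuclei, 10236 excitatory nuclei and 4227 non-neuronal nuclei. All 13 check genes that took no part in gating were highest in their own gate among SST, PV, VIP and LAMP5. They included Grin3a for SST, Kcnc1 for PV and Htr3a for VIP. Marker lists were chosen with earlier results of these data known, so this is no independent check of the gates. LAMP5 had no check list, and Elfn1 led by little, at 3.70 in SST nuclei against 2.96 in VIP nuclei. Barcode names were reused, and 5476 of 25866 distinct names occurred in 2 or more libraries. Levels are UMIs of a gene per 10000 non-viral UMIs, with exact 95% Poisson intervals that cover counting error only. These intervals leave out the spread between nuclei, so intervals that do not meet are no test. Levels are not divided by gene length, so they are compared between gates and never between genes. As the sample is 1, no test was made between gates. The level in the 15013 barcodes of 200 or fewer UMIs is given beside the gates for comparison. It is no floor for nuclei, since several gates lay below it for Pvalb and Calb1.

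Pvalb was highest in the PV gate, which was set by Btbd11, Tac1, Syt2, Cox6a2, Pthlh and Tmem132c. Of these gate genes Pthlh went the other way, at 0.931 per 10000 in PV nuclei against 3.50 in VIP nuclei. The Pvalb level in the PV gate was 9.31 per 10000 (8.54 to 10.1, 540 UMIs in 426 nuclei), and single libraries ranged from 5.17 to 13.8 around a median of 9.66. The next gate was other GABA, nuclei with GABA markers but no subclass, at 4.99 (4.51 to 5.51, 400 UMIs in 879 nuclei). The PV gate was 1.86 times (1.64 to 2.13) as high, in 9 of 10 libraries, although the library ranges overlapped. Against SST nuclei at 0.380 it was 24.5 times as high (16.4 to 38.2), in 10 of 10 libraries. Against VIP nuclei at 0.459 it was 20.3 times as high (11.3 to 40.9), also in 10 of 10. Of the 11 Pvalb UMIs in VIP nuclei, 8 came from library 2-3, and 8 of 10 libraries held none.

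A step followed the other GABA gate. It was 6.78 times (4.94 to 9.52) the level of the third gate, LAMP5 at 0.736, with no overlap between libraries. From LAMP5 down, neighbouring gates were not separated by their counting intervals or library ranges. Barcodes of 200 or fewer UMIs held 0.731 (0.612 to 0.866), and the interval of LAMP5 (0.533 to 0.992) met theirs. The LAMP5 level was nevertheless above that of the excitatory gates together, at 0.134 (0.114 to 0.155), and of vascular nuclei, the lowest at 0.0357 (0.00736 to 0.104). Excitatory layers lay between 0.0939 in L6 and 0.152 in L4.

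At least 1 Pvalb UMI was found in 54.2% of PV nuclei, at a median depth of 1269.5 UMIs. Vascular nuclei, of like depth (1242 UMIs), reached 0.585%. Thinned to 500 UMIs per nucleus, which 401 of the 426 nuclei reach, the share in PV nuclei was 32.0%. The parvalbumin message was uneven within the gate. A count of 0 was found in 195 nuclei, 1 UMI in 100, 2 in 60, 3 in 34, 4 in 13 and 5 or more in 24, and the fullest nucleus held 31. The gates for GABA nuclei together held 66.7% of all Pvalb UMIs and 10.1% of all UMIs.

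Nuclei of the other GABA gate could be divided by what they held of the PV marker list. With 1 UMI of that list, Pvalb stood at 8.45 (7.35 to 9.68, 235 nuclei), and its interval met that of the PV gate. With none it was 3.34 (2.87 to 3.86, 637 nuclei), still above the barcodes of few UMIs. Other GABA nuclei with a Pvalb UMI also held Kcnc1, a potassium channel subunit of fast-spiking neurons, at 17.0 per 10000 (15.4 to 18.8) against 7.59 (6.89 to 8.35) without. The PV gate itself had Kcnc1 at 16.4. Of 27 genes compared, 3 were higher (Kcnc1, Kcnc2 and Gad1) and 9 lower with intervals apart, among them Vip, Cnr1 and Cck. Gad1 and Vip are gate genes. The 27 genes are a chosen list, here and in the splits below. No share of all genes with intervals apart was computed. The PV gate genes Tac1, at 0.655 against 0.467, and Btbd11, at 1.11 against 0.754, had intervals that met. Nuclei with Pvalb were deeper, at a median of 1116 against 738.5 UMIs. Of all Pvalb UMIs, 26.2% lay in other GABA against 35.4% in PV.

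Within the PV gate, nuclei with a Pvalb UMI differed from the rest in Tac1, the tachykinin precursor, which was 4.37 per 10000 (3.71 to 5.11) against 11.7 (10.4 to 13.2), and lower in 9 of 10 libraries. Tac1 is a gate gene, so a nucleus could enter the gate by Tac1 alone. Gad1, which makes GABA, was 27.0 (25.4 to 28.8) against 20.5 (18.6 to 22.4) and higher in 9 of 10 libraries. Gad1 is in the GABA list, so it also took part in gating. Nuclei with a Pvalb UMI were deeper, with a median of 1405 against 1011 UMIs. In all, 27 genes were compared in this way, and 5 had intervals that did not meet.

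**Figure D1:**
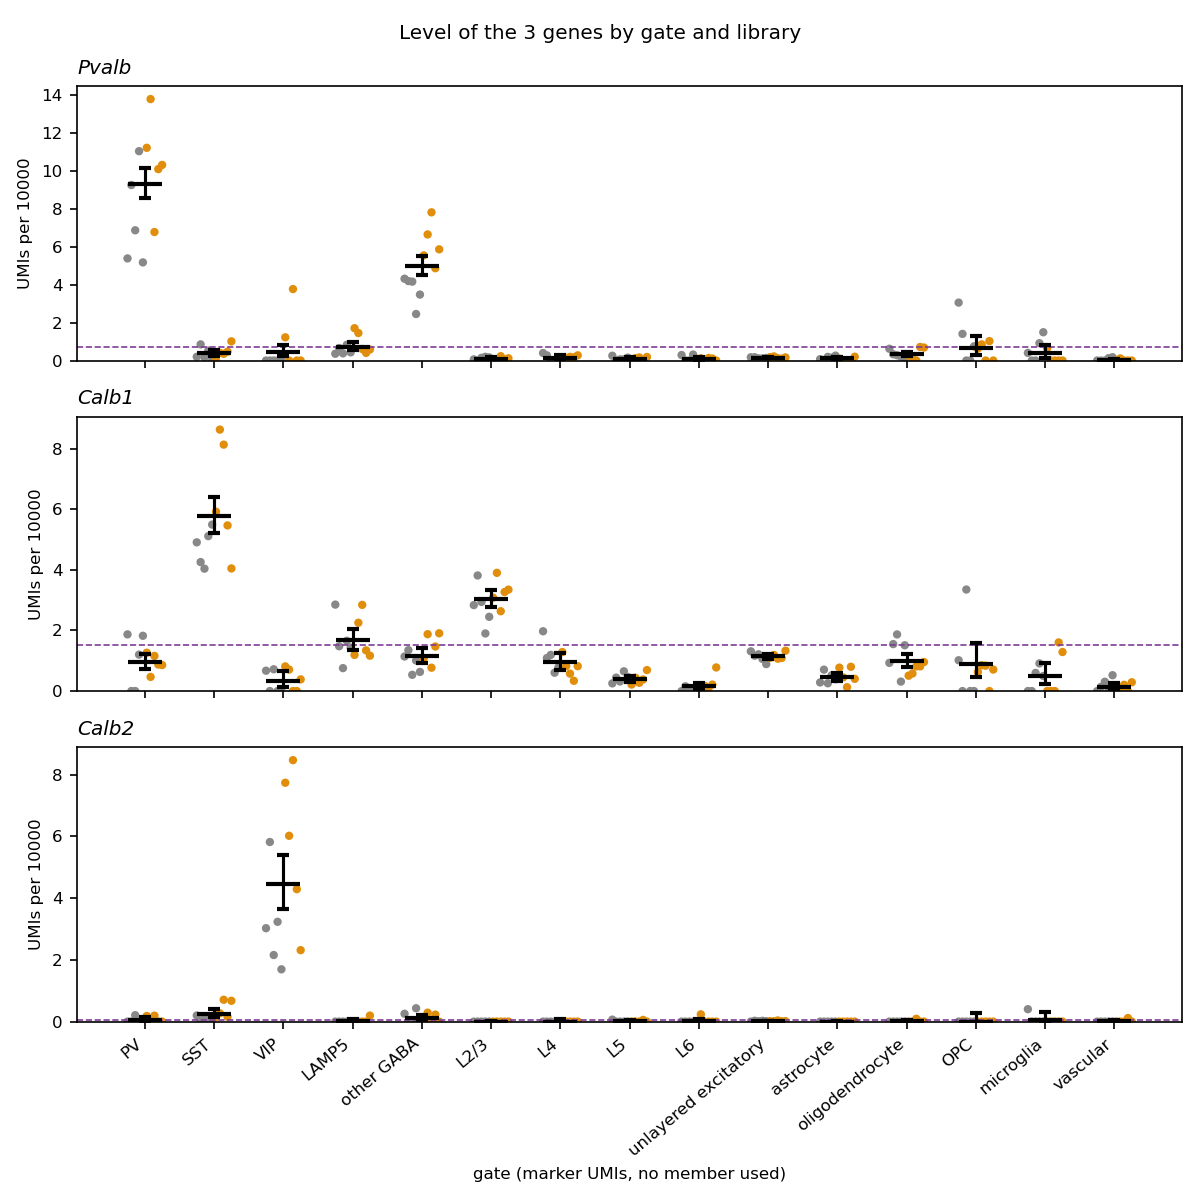
Level of each gene (UMIs per 10000 non-viral UMIs, linear axis from 0) in the 15 gates. Points are the 10 libraries (grey for library set 1, orange for set 2), black bars the pooled level with its exact 95% Poisson interval, and the dashed line is the level in barcodes of 200 or fewer UMIs. Pvalb peaks in PV with other GABA next, Calb1 in SST with L2/3 next, and Calb2 in VIP alone.

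Calb1 had its highest level in SST nuclei, gated by Sst alone, at 5.78 per 10000 (5.22 to 6.39, 380 UMIs in 598 nuclei). Libraries ranged from 4.04 to 8.62 around a median of 5.29. Its next level was in excitatory neurons of L2/3, gated by Otof, Rasgrf2, Cux2, Wfs1, Ddit4l and Stard8, at 3.04 (2.78 to 3.32, 501 UMIs in 1060 nuclei), with libraries between 1.90 and 3.90. SST was 1.90 times as high as L2/3 (1.66 to 2.17), in 10 of 10 libraries and with no overlap of their ranges. Of all Calb1 UMIs, 16.5% lay in GABA gates and 40.2% in excitatory gates, which hold 10.1% and 44.4% of all UMIs.

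The other GABA subclasses were far lower. SST exceeded PV nuclei, at 0.948 (0.714 to 1.23), by 6.10 times (4.59 to 8.25) and VIP nuclei, at 0.334, by 17.3 times (8.71 to 40.4), each in 10 of 10 libraries. L2/3 exceeded L4 (0.949) by 3.21 times (2.40 to 4.38), L5 (0.402) by 7.57 times (5.89 to 9.87) and L6 (0.161) by 18.9 times (10.7 to 36.9). Each of these layers had a lower Calb1 level than the layer above it, with counting intervals that did not meet. Library ranges overlapped at each step, and L4, L5 and L6 all lay below the level of barcodes with few UMIs given next. The L6 level rests on 12 UMIs, with 5 libraries at 0 and the highest at 0.779.

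For Calb1 the barcodes of few UMIs lay closer to the leading gates. Barcodes of 200 or fewer UMIs stood at 1.52 (1.35 to 1.71) and ungated nuclei at 1.54. The intervals of LAMP5, at 1.68 (1.36 to 2.05), other GABA, at 1.15 (0.926 to 1.41), and OPC, at 0.900 (0.465 to 1.57), met that of these barcodes, and all other gates beside SST and L2/3 had intervals below it. Only SST and L2/3 had counting intervals above it, by 3.80 times (3.25 to 4.45) and 2.00 times (1.72 to 2.33). The OPC level rests on 12 UMIs, with 4 libraries at 0 and the highest at 3.35.

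At least 1 Calb1 UMI was found in 32.1% of SST nuclei, at a median depth of 978 UMIs, and in 30.8% of L2/3 nuclei, at 1441 UMIs. At 500 UMIs per nucleus, which 490 of 598 SST and 1032 of 1060 L2/3 nuclei reach, the shares were 20.97% and 13.0%. The likeness of the unthinned shares thus came with unequal depth. Vascular nuclei had a share of 2.14% at 1242 UMIs and L6 nuclei 1.63% at 1388 UMIs. Single SST nuclei held up to 8 Calb1 UMIs and single L2/3 nuclei up to 6.

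Within SST nuclei, those with a Calb1 UMI had more message of some genes and less of others. Sst stood at 201 per 10000 (196 to 207) in the 192 nuclei with Calb1 and at 147 (143 to 151) in the 406 without, higher in 9 of 10 libraries. Npy, neuropeptide Y, was 33.7 (31.5 to 36.0) against 21.6 (20.2 to 23.1), higher in 8 of 10. Cort, cortistatin, was 1.97 (1.47 to 2.58) against 0.636 (0.412 to 0.939), higher in 9 of 10. Lower with Calb1 were Kcnc2 at 7.23 (6.24 to 8.33) against 10.4 (9.44 to 11.5), Crh at 0.341 (0.156 to 0.647) against 1.25 (0.922 to 1.65), and Tac1, with no UMI in nuclei with Calb1 and a level of 0.356 (0.195 to 0.598) without. Of 27 genes compared these 3 higher and 3 lower had intervals that did not meet. Sst, Npy and Tac1 are gate genes. Nuclei with Calb1 were deeper, at a median of 1266 against 860 UMIs.

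Markers of SST and L2/3 nuclei were read beside Calb1 in other gates and did not all go one way. LAMP5 nuclei with an Sst UMI had Calb1 at 4.04 (2.47 to 6.25, 40 nuclei), and those with none at 1.46 (1.15 to 1.82, 504 nuclei). L2/3 nuclei with a Calb1 UMI had Sst at 0.995 (0.755 to 1.29) against 0.226 (0.145 to 0.336) without, while Cux2, a marker of their own gate, was 3.17 (2.73 to 3.66) against 4.08 (3.70 to 4.48). PV nuclei with a Calb1 UMI had Sst at 0.157 against 0.445, with intervals that met. With every nucleus that held a UMI of the GABA list left out, L2/3 nuclei had Calb1 at 3.08, against 3.04 in all L2/3 nuclei. Sst is not in the GABA list, so L2/3 nuclei with an Sst UMI could remain and were not tested apart. Excitatory nuclei of no layer with 1 UMI of the L2/3 list had 2.28 (2.01 to 2.57), and those with no layer UMI 1.01 (0.916 to 1.12).

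Calb2 had the fewest UMIs, 192 in all nuclei. VIP nuclei, gated by Vip alone, held 4.46 per 10000 (3.66 to 5.39, 107 UMIs in 296 nuclei), with libraries from 1.69 to 8.47 around a median of 3.76. They held 55.7% of all Calb2 UMIs and 0.842% of all UMIs. The next gate was SST at 0.243 (0.139 to 0.395, 16 UMIs), and VIP was 18.3 times as high (10.8 to 33.2), in 10 of 10 libraries with no overlap.

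PV nuclei held 3 Calb2 UMIs, LAMP5 nuclei 1 and other GABA nuclei 10. No Calb2 UMI was found in L2/3, L4, astrocyte or OPC nuclei. For L2/3, 0 of 1060 nuclei allows a share of nuclei with a UMI of up to 0.283%, from a floor of 3 counts. Against a floor of 3 UMIs over the gate the VIP level was at least 245-fold higher, and the lower 95% limit of the ratio was 196. The level in barcodes of 200 or fewer UMIs was 0.0440 (0.0190 to 0.0866). SST was the single other gate with an interval above it.

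A Calb2 UMI was seen in 19.6% of VIP nuclei, at a median depth of 700.5 UMIs, and in 0.224% of L5 nuclei at 1813 UMIs. At 500 UMIs per nucleus, which 208 of the 296 VIP nuclei reach, the share was 16.2%, so depth and the nuclei counted both changed. The 10 fullest VIP nuclei held 37.4% of the gate's Calb2 UMIs, so a few nuclei weigh heavily in this level. In SST nuclei 14 of the 16 UMIs came from library set 2, and Calb2 stood at 0.0655 (0.00793 to 0.237) in set 1 and 0.398 (0.218 to 0.668) in set 2. The interval of set 1 alone met that of barcodes with few UMIs.

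VIP nuclei with calretinin message had lower levels of some genes of the chosen list. Cnr1, the cannabinoid receptor, was 16.5 per 10000 (13.4 to 20.2) in the 58 nuclei with a Calb2 UMI against 39.7 (36.8 to 42.7) in the 238 without, lower in 10 of 10 libraries. Cck, cholecystokinin, was 2.75 (1.57 to 4.47) against 11.1 (9.64 to 12.8), lower in 9 of 10. Cnr1 and Cck are known to mark cholecystokinin basket cells, a class of interneuron apart from calretinin cells.

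Crh, corticotropin-releasing hormone, was 4.82 (3.20 to 6.97) against 21.1 (19.1 to 23.4), lower in 9 of 10 libraries. Htr3a, the serotonin receptor of VIP and related interneurons, was 1.03 (0.379 to 2.25, 6 UMIs) against 6.05 (4.98 to 7.30), lower in 10 of 10. With so few UMIs, libraries that held none also count as lower. As a ratio, Vip differed least of the genes that differed, at 112 (103 to 120) against 140 (135 to 146). Of 27 genes compared, 7 had intervals that did not meet, the others being Npy and Sst, and all 7 were lower with Calb2. No share over all genes was computed, so this count is not read as a trait of these nuclei. The genes named were picked for description after their values were seen, and Vip, Npy and Sst are gate genes. The nuclei with Calb2 were the deeper, with a median of 906 against 650 UMIs.

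**Figure D2:**
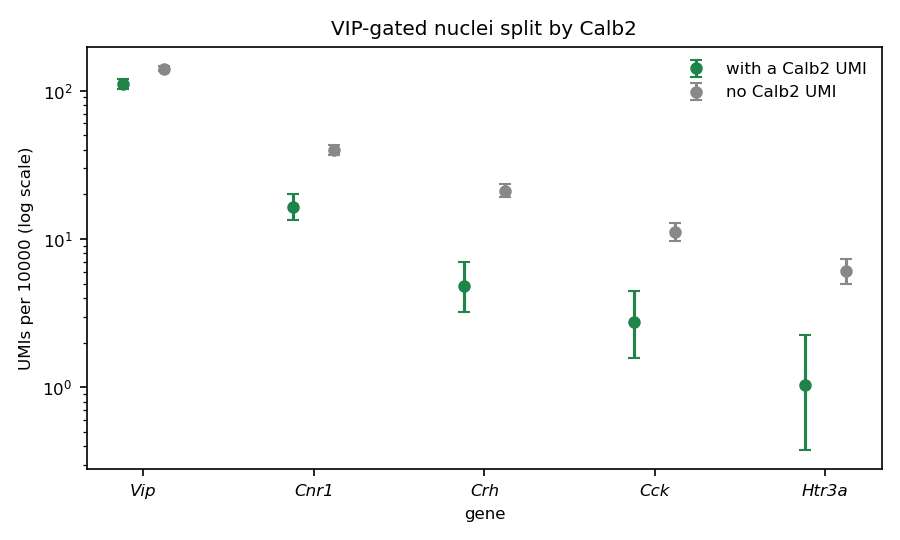
Levels of 5 genes (UMIs per 10000, log axis) in VIP-gated nuclei with a Calb2 UMI (green, 58 nuclei) and without (grey, 238 nuclei), with exact 95% Poisson intervals. Cnr1, Crh, Cck and Htr3a lie lower in nuclei with Calb2, and Vip differs least as a ratio.

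PV nuclei with a Calb1 UMI had 5 of 27 genes with intervals that did not meet those of other PV nuclei, and were deeper, at 1596 against 1232 UMIs. The 38 of them had Pvalb at 5.35 (3.71 to 7.48) against 9.80 (8.96 to 10.7) in the 388 without, and Cck at 6.61 (4.76 to 8.94) against 2.03 (1.66 to 2.46). LAMP5 nuclei with a Calb1 UMI (69) had Npy at 31.4 (28.1 to 34.9) against 79.5 (77.0 to 82.1) in the 475 without (Npy is a gate gene of LAMP5), and Cnr1 at 4.15 (3.03 to 5.55) against 19.5 (18.2 to 20.8). Gad1 was 10.9 (9.01 to 13.0) against 22.6 (21.3 to 24.0). Slc17a7, the vesicular glutamate transporter of excitatory neurons, was 1.11 (0.572 to 1.93) against 0.400 (0.241 to 0.624), with intervals that met. Gad1 is in the GABA list and Slc17a7 in the excitatory list, so both took part in gating. In LAMP5 nuclei 4 of 27 genes were higher and 5 lower with intervals apart, at a median depth of 1406 against 908 UMIs. The higher genes were Pvalb, Tac1, Kcnc2 and Rbp4, and the lower ones Npy, Cnr1, Gad1, Vip and Prox1. Pvalb stood at 1.48 with Calb1, and its interval of 0.843 to 2.40 lay above that without Calb1, 0.374 to 0.826. Tac1 is a gate gene of PV and Vip that of VIP.

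UMIs of a pair of members in the same nucleus were counted as well. In PV nuclei 20 of 426 held Pvalb and Calb1, and 1 held Pvalb and Calb2. In SST nuclei 8 of 598 held Calb1 and Calb2, which is 8 of the 12 SST nuclei with a Calb2 UMI. In VIP nuclei 2 of 296 held Pvalb and Calb2. With a median of 929 UMIs per nucleus over the GABA gates, a missing UMI does not show that the gene was off.

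The leading levels were higher in library set 2 than in set 1, with intervals that met only for Calb1 in L2/3. Pvalb in PV nuclei was 7.39 (6.36 to 8.54) in set 1 and 10.7 (9.66 to 11.9) in set 2. Calb1 in SST nuclei was 4.81 (4.07 to 5.66) and 6.62 (5.80 to 7.53), and in L2/3 nuclei 2.77 (2.39 to 3.18) and 3.25 (2.90 to 3.64). Calb2 in VIP nuclei was 3.15 (2.21 to 4.37) and 5.65 (4.41 to 7.13). Set 2 nuclei were deeper, with medians of 1372 against 1130 UMIs in the PV gate. The part of depth in these levels was not tested.

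Other EF-hand genes were set against the same gates. Of 24 calcium-binding genes listed, 23 had a column and 19 reached 50 UMIs in the GABA gates. In 6 of the 19, a subclass gate was at least 2 times as high as the other GABA gates together, and the same rule took 10.3% of 8601 genes. Kcnip2, a potassium channel subunit that binds calcium, was 3.71 per 10000 in PV nuclei, 3.01 times (2.51 to 3.61) the other GABA gates and higher in 10 of 10 libraries.

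The remaining 5 were highest in VIP nuclei among the 4 subclass gates, but only Necab2 and Caln1 were so among all 15 gates. Efhd2, at 5.63 per 10000 in VIP nuclei, was 9.17 in L6 nuclei and 8.10 in microglia. Hpcal1, at 0.834 in VIP nuclei, was 1.38 in microglia and 1.25 in vascular nuclei. Necab1 was 2.28 in L4 nuclei against 2.25 in VIP nuclei. Necab2 was 4.73 times as high (2.46 to 8.71), Hpcal1 3.31 times (1.90 to 5.54), Caln1 2.66 times (2.05 to 3.41), Necab1 2.47 times (1.80 to 3.33) and Efhd2 2.01 times (1.66 to 2.42). Necab1 and Caln1 were nearly as high in LAMP5 nuclei, at 1.99 and 2.76, as in VIP nuclei, at 2.25 and 3.25.

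**Figure D3:**
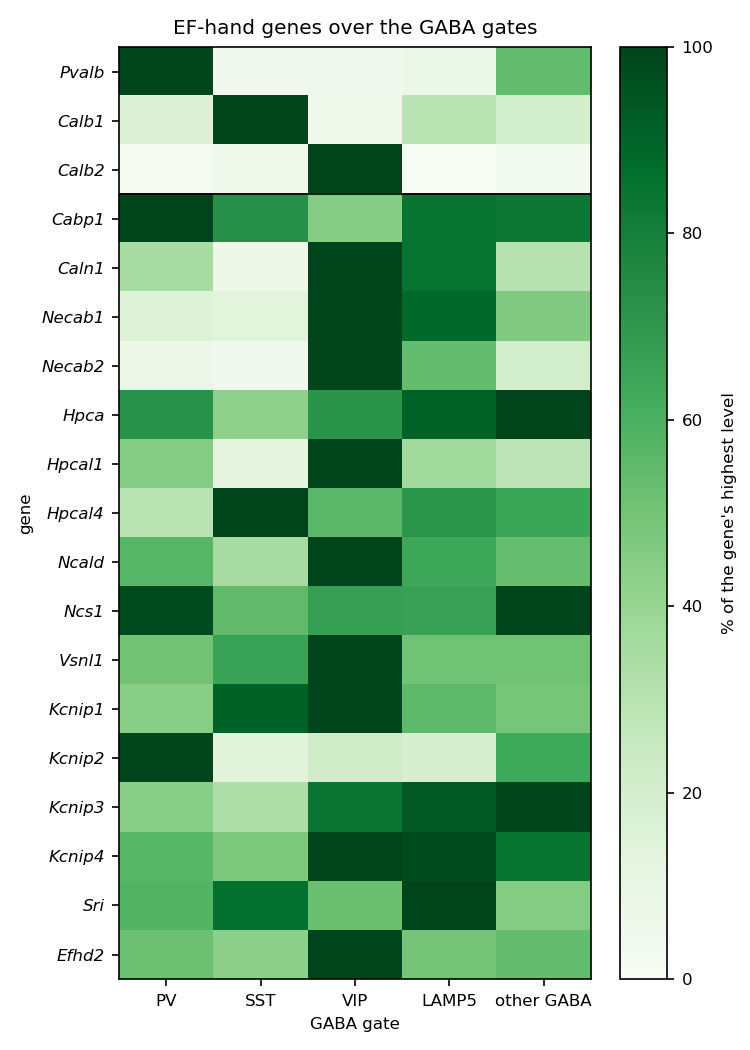
Levels of Pvalb, Calb1 and Calb2 (above the line) and of other EF-hand genes with at least 50 UMIs, in 5 GABA gates, as a percentage of each gene's highest level among them (0 to 100). The members have 1 dark cell each, with other GABA paler for Pvalb, while most other genes are spread over several gates.

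Over the 15 gates, among 9221 genes with at least 300 UMIs, the gene most like Pvalb was Ank1 (Pearson r = 0.926 of log2 levels, n = 15 gates), an ankyrin of the membrane skeleton, followed by Sars, Nog, Ndufb5 and Inpp5j. Calb1 was followed by Slc30a3 (r = 0.821), the zinc transporter of synaptic vesicles, then Tbc1d31, Cux2 and Phka2, of which Cux2 is a gate gene of L2/3. Calb2 was followed by Tac2 (r = 0.908), a tachykinin precursor, then Crh, Vip, Scoc and Glra2, of which Vip is the gate gene. Slc30a3 was highest in SST nuclei (4.58 per 10000), as Calb1 was, but its next level was in L4 (3.95) before L2/3 (3.51). Gates share libraries and differ in depth, so these values are descriptions.

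Chromatin was read next at the genes themselves, in GRCm38 (mm10) with GENCODE M21. Samples held 1801883 to 2256073 reads in the reference regions, and 40338 regions passed the filter on low counts. Regions were tested with edgeR's quasi-likelihood test, each cell type against the mean of the others, at an adjusted p under 0.05 over all tested regions. Reads are given as deposited, SST first, then PV, then VIP, replicate 1 before replicate 2.

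Pvalb (ENSMUSG00000005716) spans chr15:78191114-78206400 on the minus strand, with Ift27 and Ncf4 within 50 kb. Of 29 regions there, 8 were tested, and 21 held 0 to 18 reads per sample and were not. In the PV contrast 2 regions were called higher and 2 lower, against 17.1% and 11.7% of all tested regions. Both regions called higher passed the filter through the PV samples, as no other sample held more than 8 reads there, so nothing is read from their count.

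The region with the largest PV excess near Pvalb lies in an intron, chr15:78195158-78196165, 10739 bases into the gene. It held 7 and 8 reads in SST, 22 and 41 in PV, and 3 and 2 in VIP. Both PV samples were above all others, and both VIP samples below. PV exceeded the mean of the others by 3.00 on the log2 scale (SE 0.44, adjusted p = 0.000244), and VIP was at -2.70 (SE 0.61, adjusted p = 0.00157). Peaks were listed there in both PV samples, with −log10 q of 20.7 and 19.0, in both SST samples, with 4.88 and 6.41, and in no VIP sample. The mean phyloP score was 0.0672. The region passed the filter through the PV samples, and the PV nuclei were sorted through Pv-Cre. These values are thus a description of sorted nuclei at their own driver gene.

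Around the starts of Pvalb less was seen. No reference region covered the GENCODE start, and the nearest, 969 bases inside the gene, held 0 to 7 reads and was not tested. A region over another RefSeq start, chr15:78203911-78204698, held 25 and 27 reads in SST, 39 and 29 in PV, and 20 and 32 in VIP. Both PV samples were highest per read in regions, but the PV difference of 0.55 (SE 0.30, adjusted p = 0.171) did not pass the test. The 300 bases of the intron peak and the 300 bases before the GENCODE start are shown to set the PV-high element beside the start, read from the genome on the strand of the gene.

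Pvalb intron peak, chr15:78195636-78195935, minus strand: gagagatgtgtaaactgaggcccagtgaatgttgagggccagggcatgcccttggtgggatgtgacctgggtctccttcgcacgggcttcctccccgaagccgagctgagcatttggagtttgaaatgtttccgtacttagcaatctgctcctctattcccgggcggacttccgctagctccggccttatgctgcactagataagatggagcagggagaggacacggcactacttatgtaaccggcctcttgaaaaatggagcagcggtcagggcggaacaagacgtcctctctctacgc
Pvalb before the start, chr15:78206401-78206700, minus strand: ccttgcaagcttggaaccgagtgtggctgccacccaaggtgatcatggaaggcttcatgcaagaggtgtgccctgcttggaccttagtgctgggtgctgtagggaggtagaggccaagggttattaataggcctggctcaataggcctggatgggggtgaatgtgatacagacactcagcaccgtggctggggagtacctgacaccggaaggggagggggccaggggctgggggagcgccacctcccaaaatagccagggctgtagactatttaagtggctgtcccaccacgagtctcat

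Capitals in the printed sequences mark matches on either strand to the letters TAATTA of homeodomain factors, TCAAGGTCA of estrogen-related receptors, TGCTGAC of MAF factors, TGANTCA of AP-1 factors, AACAAT of SOX factors and TATAAA of the TATA box, and to CTA followed by TAG with 4 bases of any kind between. The TATA box was chosen after the sequences were seen. Neither Pvalb sequence held a match to these exact letters, and looser forms of the motifs were not searched. In the middle 300 bases of 40329 tested regions, TGANTCA matched in 11.0%, TGCTGAC in 6.91%, AACAAT in 6.30%, TATAAA in 6.06%, TAATTA in 3.80%, CTA with TAG in 3.37% and TCAAGGTCA in 0.357%. A missing match says only that these letters are not in the window.

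The other called regions near Pvalb lie outside it. An intergenic region 48480 bases from the start, beyond the 3′ end, held 3 and 2 reads in SST, 14 and 12 in PV, and 5 and 1 in VIP, with a PV difference of 2.36 (SE 0.54, adjusted p = 0.00415). Downstream of Pvalb, a region 27889 bases from its start was lowest in PV, with 11 and 13 reads against 22 and 21 in SST and 53 and 65 in VIP (PV -1.39, SE 0.35, adjusted p = 0.00767). The start of Ift27, a ciliary transport gene, held 58 and 77 reads in SST, 40 and 33 in PV, and 90 and 110 in VIP (PV -0.99, SE 0.25, adjusted p = 0.00689). In the VIP contrast, against 24.9% called higher and 24.0% lower (48.9% either way) over all tested regions, 3 regions near Pvalb were higher and 2 lower. Beside those named, they were an intergenic region 64827 bases from the start (VIP 2.19, SE 0.57, adjusted p = 0.00437, and SST -3.03, SE 0.79, adjusted p = 0.0160) and an exon of Ncf4 (VIP -1.64, SE 0.56, adjusted p = 0.0220). The region at 64827 bases held 2 and 0 reads in SST, 6 and 6 in PV, and 11 and 15 in VIP. It passed the filter through the VIP samples, so nothing is read from the count of regions higher in VIP.

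Several of these calls outside Pvalb were lost in other fits. With all 6 samples, DESeq2 did not call the region at 48480 bases in PV (adjusted p = 0.0741), the one at 64827 bases in SST (adjusted p = 0.155) and VIP (adjusted p = 0.0543), or the Ncf4 exon in VIP (adjusted p = 0.127). With no filter on low counts, edgeR did not call the regions at 48480 bases (adjusted p = 0.122) and 27889 bases (adjusted p = 0.0645) or the Ift27 start (adjusted p = 0.0684) in PV, the region at 64827 bases in SST (adjusted p = 0.195) or the Ncf4 exon in VIP (adjusted p = 0.229). Leaving out single samples lost some as well, in fits whose filter also let more regions through (53326 to 56308 in place of 40338). Without PV replicate 1 the PV adjusted p was 0.159 at 48480 bases, 0.128 at 27889 bases and 0.0640 at the Ift27 start, and without PV replicate 2 it was 0.0940 at 48480 bases and 0.104 at the Ift27 start. At 64827 bases the SST adjusted p was 0.141 without SST replicate 2 and 0.0972 without VIP replicate 2, and the VIP one was 0.121 without VIP replicate 2. At the Ncf4 exon the VIP adjusted p was 0.0648 without PV replicate 2 and 0.347 without VIP replicate 2. The Pvalb intron was called in PV and VIP, and the Ift27 start and the region at 27889 bases in VIP, in all 10 refits. The refits share most samples, so these repeated calls are not independent.

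Calb1 (ENSMUSG00000028222) spans chr4:15881264-15908064 on the plus strand, with Decr1 and Nbn within 50 kb. Of 17 regions, 3 were tested, each over a gene start, and the other 14 held 0 to 6 reads per sample. In the SST contrast 1 of the 3 was called, against 8.15% higher and 5.41% lower over all tested regions.

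The region called was the start of Calb1, chr4:15880941-15881651. It held 63 and 96 reads in SST, 43 and 26 in PV, and 35 and 35 in VIP. Both SST samples were above all others, and PV and VIP overlapped. The SST difference was 1.14 on the log2 scale (SE 0.26, adjusted p = 0.00713), the PV difference -0.45 (SE 0.28, adjusted p = 0.243) and the VIP difference -0.70 (SE 0.28, adjusted p = 0.0497), a call lost in 8 of 10 refits. DESeq2 gave the SST difference as 1.12 (SE 0.36, adjusted p = 0.0508) and did not call it. With no filter on low counts edgeR did not call it either. Peaks were listed in all 6 samples, and the mean phyloP score of 0.564 was the highest among the regions named here. Decr1 and Nbn, at the other starts, were not called in any contrast.

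The 300 bases before the start of Calb1 are printed since they are the untranscribed part of this region. They held 1 match to AACAAT.

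Calb1 before the start, chr4:15880964-15881263, plus strand: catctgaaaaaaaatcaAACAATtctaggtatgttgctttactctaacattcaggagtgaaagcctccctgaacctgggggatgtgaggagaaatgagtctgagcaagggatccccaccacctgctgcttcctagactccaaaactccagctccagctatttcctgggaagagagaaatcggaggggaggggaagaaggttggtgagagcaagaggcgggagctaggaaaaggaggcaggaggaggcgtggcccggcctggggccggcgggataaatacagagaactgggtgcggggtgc

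Calb2 (ENSMUSG00000003657) spans chr8:110137502-110168210 on the minus strand, with 4 other genes within 50 kb. Of 22 regions, 6 were tested and 16 held 0 to 12 reads per sample. In the VIP contrast 4 of the 6 were called higher and none lower, against 24.9% and 24.0% over all tested regions. Of the 4, 3 passed the filter through the VIP samples, as no other sample held more than 3 reads there, so their count is no measure of how often regions at Calb2 differ.

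The start of Calb2, chr8:110167808-110168621, held 22 and 39 reads in SST, 11 and 19 in PV, and 88 and 74 in VIP. VIP lay above SST and SST above PV, with no overlap. The VIP difference was 1.80 (SE 0.30, adjusted p = 0.000112) and the PV difference -1.54 (SE 0.36, adjusted p = 0.00463), while SST, at -0.26 (SE 0.33, adjusted p = 0.686), did not pass the test. The PV call was lost without PV replicate 1 (adjusted p = 0.105) and with no filter on low counts (adjusted p = 0.0566). This start was listed as a peak in all 6 samples.

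The other called regions held few reads outside VIP. An intron of Calb2, chr8:110161808-110162585, held 0 and 1 reads in SST, 2 and 1 in PV, and 11 and 17 in VIP (VIP 3.68, SE 0.63, adjusted p = 0.000165). A region 4149 bases before the start, chr8:110172028-110172690, held 3 and 2 reads in SST, 0 and 3 in PV, and 21 and 24 in VIP (VIP 3.32, SE 0.54, adjusted p = 9.88e-05). One 9509 bases before the start held 2 and 3 reads in SST, 1 and 2 in PV, and 13 and 15 in VIP (VIP 2.65, SE 0.52, adjusted p = 0.000534). In each, both VIP samples were above all 4 others, but each region passed the filter through those samples. The order and the VIP differences there are thus descriptions and no independent support. Peaks were listed in both VIP samples in the intron, in VIP replicate 1 alone at 4149 bases, and at 9509 bases in VIP replicate 1 (−log10 q of 35.4), SST replicate 1 (5.26) and PV replicate 2 (4.24). Without VIP replicate 2 the VIP adjusted p was 0.0723 in the intron and 0.0706 at 9509 bases. The phyloP score was 0.507 at 4149 bases, 0.207 in the intron and 0.0597 at 9509 bases.

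The intron peak, the peak 4149 bases before the start and the 300 bases before the start are shown as the VIP-high chromatin of Calb2. The bases before the start are counted from the RefSeq start, 2 bases outside the GENCODE start. The last 2 sequences held 1 match each, to TATAAA, which matched in 13.6% of 32851 RefSeq promoter sequences of 300 bases.

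Calb2 intron peak, chr8:110162136-110162435, minus strand: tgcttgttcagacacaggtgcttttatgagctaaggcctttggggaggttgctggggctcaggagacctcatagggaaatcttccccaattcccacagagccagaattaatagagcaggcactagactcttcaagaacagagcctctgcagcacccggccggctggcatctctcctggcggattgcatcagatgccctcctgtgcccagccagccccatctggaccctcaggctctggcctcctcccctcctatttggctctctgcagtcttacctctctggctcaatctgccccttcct
Calb2 upstream peak, chr8:110172186-110172485, minus strand: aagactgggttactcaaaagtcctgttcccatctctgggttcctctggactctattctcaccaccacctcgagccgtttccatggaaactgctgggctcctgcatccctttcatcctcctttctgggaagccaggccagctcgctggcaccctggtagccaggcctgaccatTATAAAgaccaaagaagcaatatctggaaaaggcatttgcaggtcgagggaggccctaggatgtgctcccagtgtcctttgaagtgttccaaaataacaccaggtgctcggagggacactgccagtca
Calb2 before the start, chr8:110168213-110168512, minus strand: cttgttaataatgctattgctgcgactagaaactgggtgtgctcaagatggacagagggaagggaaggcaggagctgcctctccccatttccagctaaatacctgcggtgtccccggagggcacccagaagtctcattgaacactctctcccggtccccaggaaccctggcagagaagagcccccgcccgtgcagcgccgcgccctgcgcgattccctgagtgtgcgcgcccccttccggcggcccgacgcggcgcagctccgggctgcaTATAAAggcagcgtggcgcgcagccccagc

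**Figure D4:**
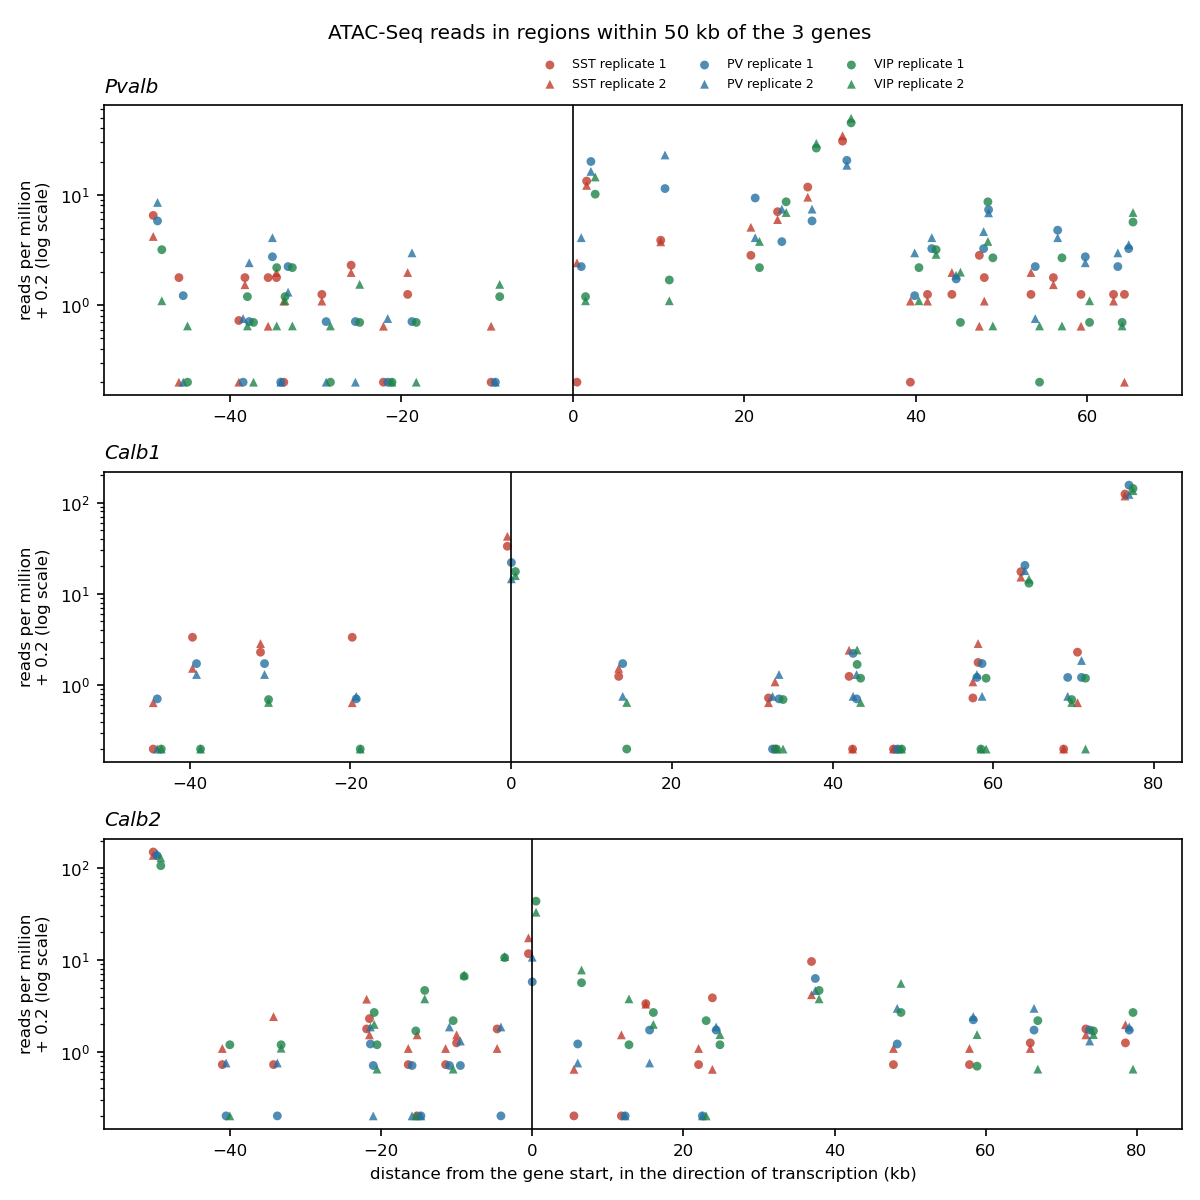
RPM (reads scaled to the total in reference regions) plus 0.2 (log axis) for every region within 50 kb of each gene, by distance of its centre from the gene start in kb (positive in the direction of transcription). Circles are replicate 1 and triangles replicate 2 of SST (red), PV (blue) and VIP (green), shifted sideways by type. VIP points lie highest at the Calb2 start and beside it, SST points at the Calb1 start, and PV points in the Pvalb intron.

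Set beside the nuclear RNA, the gate with the most message and the cell type with the most reads at a region in or at the gene were PV for Pvalb, SST for Calb1 and VIP for Calb2. For Pvalb the match is no independent result, since the intron region passed the filter through the PV samples and lies in the gene whose Cre driver marked those nuclei. Which regions could be tested was set by their reads, as the 3 tested near Calb1 were all gene starts and the Calb2 intron and upstream regions passed through VIP. No comparison of where such regions lie was made between the genes. At the Calb2 start both SST samples held more reads than both PV samples, but SST was not tested against PV alone. The Calb2 level in nuclei was 0.243 per 10000 in SST against 0.0517 in PV, with intervals that met. The PV level rests on 3 UMIs. In SST nuclei the level was 0.0655 in library set 1, from 2 UMIs, and 0.398 in set 2. Excitatory nuclei were not assayed here, so the L2/3 message of Calb1 has no matching chromatin. None of the screened elements lay within 50 kb of any of the genes, and the nearest, GRE198, was 220053 bases from the Calb1 start.

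**Figure D5:**
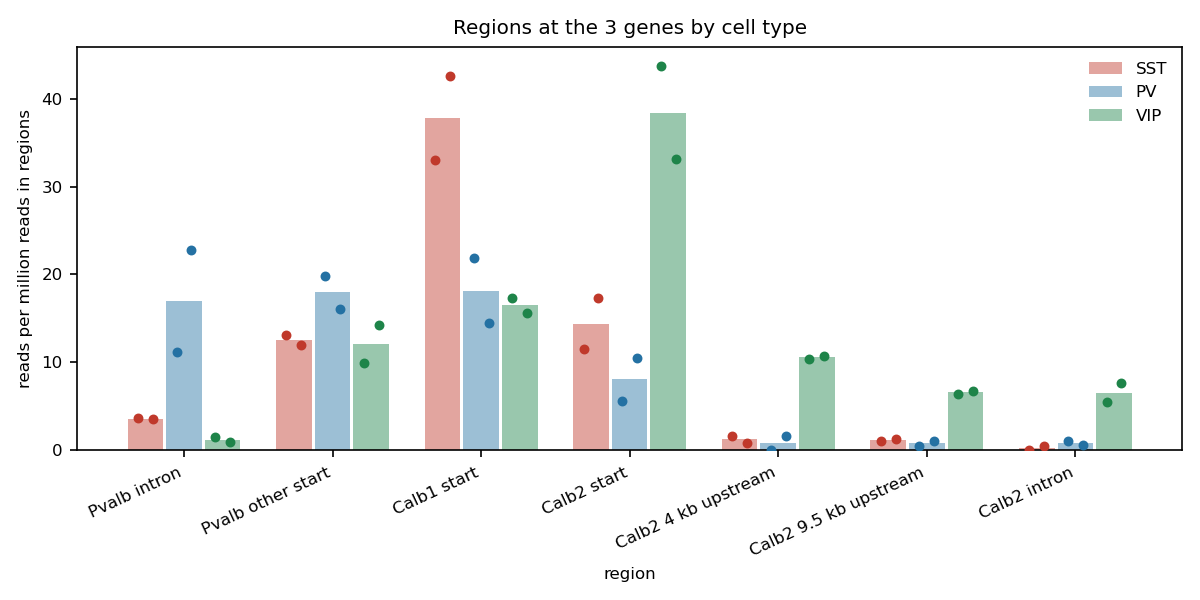
RPM (reads scaled to the total in reference regions, linear axis from 0) at 7 regions of Pvalb, Calb1 and Calb2 in SST (red), PV (blue) and VIP (green) nuclei. Bars are means of 2 samples and points are the samples. PV leads in the Pvalb intron, SST at the Calb1 start and VIP at all 4 Calb2 regions, while PV leads by less at the other Pvalb start.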

How the data were processed

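The authors sequenced 6 ATAC-Seq samples and 1 snRNA-Seq sample (10 libraries). Per the study's methods, 75-base single-end ATAC-Seq reads were trimmed with Trimmomatic 0.33, aligned to mm10 with Subread 1.4.6-p3 and freed of duplicates, and a shift for the transposase is not given in the sources used here. The deposited counts are raw reads per reference region from featureCounts, over regions that the authors merged from these and other neuronal samples. The deposited peak lists, called by the authors in each sample with MACS2 and HOMER, give a −log10 q-value. The deposited phyloP score is the authors' mean per region. For snRNA-Seq the authors used the inDrops pipeline on GRCm38, and the deposited counts are UMIs without normalization. The authors' specificity columns for their elements hold their own comparisons and were not read.

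The genes and marker lists were chosen with earlier results of these data known. The depth minimum was 200 non-viral UMIs, exceeded by every nucleus used. GABA nuclei held more GABA-list than excitatory-list UMIs and excitatory nuclei the reverse, a subclass or layer needed 2 UMIs of its list and more than any other list, a non-neuronal type needed 3, and doublets were not removed. UMIs were summed over each gate and library. Genes named were the members, listed EF-hand genes at least 2 times as high in a subclass gate with at least 50 UMIs, the 5 genes most like each member by Pearson r of log2(level + 0.1), and regions over a member's start or called within 50 kb. The region over the other Pvalb start, the genes compared within a gate and TATAAA were added after values were seen.

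Reads per region were tested with edgeR 4.0.16 (TMM, filterByExpr) in R 4.3.3, all 6 samples in a fit, with Benjamini-Hochberg adjustment over 40338 regions, after a check on simulated data. Each sample was 1 animal. DESeq2 1.42.0, no TMM, no filter, a replicate block, windows of 20 and 100 kb and each sample left out were alternatives. For nuclei, the alternatives were 3 gate UMIs, more than 500 UMIs, no UMI of the opposite neuronal class, equal weight of libraries and each library set alone. Sequences came from GRCm38.p6, whose chromosomes all contain the regions' coordinates. Some genes that these rules take are not reported here.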

Additional observations from a re-analysis of the deposited data

How the results depend on the processing

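All 36 alternative values of the 6 levels moved by less than 1 SD of the 10 libraries. That SD is wide for sparse genes and includes the difference between library sets, so this count does not show steady levels. Calb2 in SST nuclei, with an SD of 0.259, was 0.243 in all libraries and 0.0655 in set 1 alone. Of the 36 alternative counts of regions called near the genes, 30 stayed within 1.5 times the reported count. With no filter on low counts, 1 region near Pvalb was called in PV in place of 4, and 0 near Calb1 in SST. DESeq2 also called 0 near Calb1 in SST, where edgeR called 1, and the Calb1 start had an unadjusted p of 0.00186 in DESeq2 and 0.00150 with no filter. Leaving out each sample in turn gave 1 to 5 regions near Pvalb, 1 to 1 near Calb1 and 2 to 4 near Calb2. Near Pvalb the lowest counts were 1 without PV replicate 1 and 2 without PV replicate 2, and near Calb2 the count was 2 without VIP replicate 2. Where a cell type was left with 1 sample, that sample was assumed to vary like the others. More regions were tested without a filter (310118) and with a sample left out (53326 to 56308) than in the reported fit, so leaving out a sample changed the samples and the tested regions at once. The part of each was not tested.

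The Pvalb intron in PV and VIP, and the Calb2 start and the region 4149 bases before it in VIP, were called under all 10 refits. The Calb2 intron and the region 9509 bases before Calb2 were not called in VIP without VIP replicate 2, and the VIP difference at the Calb1 start was called in 2 of 10. No called difference changed sign. The Pvalb intron passed the filter through PV and the region at 4149 bases through VIP. The refits also share most samples, so repeated calls are not independent of the reported ones. In PV, the region 48480 bases from Pvalb was not called in 4 of 10, the Ift27 start in 3, and the region at 27889 bases and the Calb2 start in 2 each. The region at 64827 bases was not called in SST in 4 and in VIP in 2, and the Ncf4 exon in VIP in 4.

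With the replicate block, 4 regions were called near Pvalb, 1 near Calb1 and 4 near Calb2, as without it. Deviations of same-numbered samples correlated by 0.0233 (PV and SST), -0.0366 (PV and VIP) and 0.0297 (SST and VIP). These values show no pairing by number, but with 2 samples per cell type they cannot exclude it. Across all regions DESeq2 called 864 higher in SST where edgeR called 3288, 2494 against 6881 in PV, and 5038 against 9672 lower in VIP. With no filter 725 were higher and 493 lower in PV, and 411 and 157 in SST, of 310118 tested. In VIP 10738 were higher, above the 10046 of the reported fit, and 2985 were lower. A region with under about 10 reads in each sample could not be tested.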
